A study of Mus musculus with 17 samples.

Results

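Here 9 transcripts of classical monocytes and of the macrophages that develop from them were followed in sorted Kupffer cells (KCs), which are the macrophages that live in the sinusoids of the liver. They were *Ly6c2*, *Ccr2*, *Chil3*, *F13a1*, *Plac8*, *Fn1*, *Vcan*, *Thbs1* and *Arg1*, chosen by gene symbol among the 25124 genes that each of the 3 deposited tables lists, and every table held a row for all 9. RNA-seq was done on 17 samples of KCs from mouse liver, sorted as F4/80+ TIM4+ cells, with T cells, B cells, NK cells and Ly6G+ neutrophils gated out. In the tumour experiment, the main subset, TIM4+CD206+ KCs, and the minor subset, TIM4+CD206hi KCs, were each sorted from 3 tumour-free samples, labelled untreated, and from 3 samples taken 2 weeks after intraportal injection of KPC tumour cells, a pancreatic adenocarcinoma line. In the genetic experiment, untreated KCs of 3 *Id3 f/f* samples, here called control KCs, were compared with those of 2 *Clec4f cre Id3 f/f* littermates, called Id3-deleted KCs. Floxed *Id3* is common to both, and a Cre driven by *Clec4f*, a gene of KCs, deletes it in the latter only. ID3 is a nuclear inhibitor that keeps E-proteins from binding DNA at E-boxes. The labels give no age or sex. The study describes the *Id3* samples as mice and its replicates as biological in general, but the labels name no animals for the tumour experiment, where the p-values measure the spread between these samples.

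Classical monocytes leave the bone marrow through the chemokine receptor CCR2, carry the surface antigen Ly6C, and enter an injured or tumour-bearing liver, where they become macrophages. As they do so, they make matrix proteins and enzymes such as fibronectin, versican, thrombospondin 1 and arginase 1. KCs descend from embryonic precursors, maintain themselves in the healthy liver and are marked by TIM4 and CLEC4F. In bulk RNA, more cells of another type and more RNA of a gene per KC cannot be told apart.

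The deposited values are on a log2 scale and were normalized within each table, so levels were compared only among the samples of 1 table. They have the features of the regularized log transformation, which draws genes with few reads towards their mean. If it was used, differences of weakly expressed genes are understated, which was not measured. Converted back from log2, the values of a sample summed to between 21800000 and 39700000. The KC identity of the samples was checked with 15 genes of KCs, all of which were above the limit for testing in the 3 tables, with a mean over the list of 15.09 to 15.82 (log2) per sample. *Clec4f*, for example, was at 19.28 ± 0.33 (SD, n = 3) in tumour-free TIM4+CD206+ KCs. The check does not measure RNA of other cells. In tumour-free TIM4+CD206hi KCs, the mean over 11 endothelial genes was 12.96 to 13.89 per sample. The highest of these, *Clec4g*, was at 15.98 ± 0.21, beside *Timd4*, which encodes TIM4, at 14.85 ± 0.35. Genes were tested with limma when they reached the value of 10 counts in 3 samples of a tumour table or in 2 samples of the *Id3* table. A gene is said to have changed when its Benjamini-Hochberg adjusted p over all genes tested was under 0.05.

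A pair of the transcripts have near-identical copies in the genome, which limits how their reads can be assigned. *Ly6c2* (chr15:75108158-75111970, minus strand, GRCm38, GENCODE M21) and *Ly6c1* (chr15:75044018-75048830, minus strand), a gene of endothelial and other cells, agreed in 387 of 396 coding bases (97.7%). Of the 297 stretches of 100 bases in the *Ly6c2* coding sequence, 100 bases being the length of a read, 89 (30.0%) also occurred in *Ly6c1*. The first 240 coding bases from the start codon hold 6 of the 9 differences, here in capitals, and are given because reads from the lower-case stretches alone do not tell the genes apart.
Ly6c2: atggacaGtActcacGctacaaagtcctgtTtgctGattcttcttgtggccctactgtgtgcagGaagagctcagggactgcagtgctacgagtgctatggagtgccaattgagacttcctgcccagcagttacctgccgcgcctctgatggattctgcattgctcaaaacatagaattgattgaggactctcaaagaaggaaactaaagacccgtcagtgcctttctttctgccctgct
Ly6c1: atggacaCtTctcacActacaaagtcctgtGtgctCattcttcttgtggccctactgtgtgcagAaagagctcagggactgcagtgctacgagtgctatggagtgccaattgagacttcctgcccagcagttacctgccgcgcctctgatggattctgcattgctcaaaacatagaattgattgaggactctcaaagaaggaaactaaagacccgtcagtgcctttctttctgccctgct

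*Chil3* (chr3:106147554-106167564, minus strand) and its copy *Chil4* (chr3:106201490-106219507, minus strand) were more distant, with 94.4% of 1209 aligned coding positions alike and 54 of 1098 stretches of 100 bases (4.9%) shared. *Chil4* stayed below the limit for testing in all 3 tables and was listed at 0 in every sample of the *Id3* table. The other transcripts lie at chr9:124101950-124113557 (plus strand, *Ccr2*), chr13:36867178-37050244 (minus, *F13a1*), chr5:100553725-100572245 (minus, *Plac8*), chr1:71585520-71653200 (minus, *Fn1*), chr13:89655312-89742509 (minus, *Vcan*), chr2:118111876-118127133 (plus, *Thbs1*) and chr10:24915221-24927484 (minus, *Arg1*). All 9 are protein-coding genes. The kit used does not mark the strand, and the spans of *F13a1*, *Fn1*, *Vcan* and *Thbs1* overlap those of annotated genes on the opposite strand. Reads from bases that exons of both genes share could not be told apart by strand. Whether their exons overlap was not looked at.

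In TIM4+CD206+ KCs, 4 of the 9 transcripts rose with tumour and none fell. *Chil3*, which encodes the secreted chitinase-like protein Ym1, rose by 3.10 (log2; SE 0.29), *Ccr2* by 2.57 (SE 0.37), *Arg1* by 2.45 (SE 0.26) and *F13a1* by 2.21 (SE 0.20). *Ly6c2*, the antigen that defines classical monocytes, stayed within 0.16 of its tumour-free mean. Of all 13233 genes tested, 3.54% changed, 2.55% rising and 0.998% falling. The groups did not overlap in 6 of the 9, all higher with tumour, against 23.4% of all genes in either direction and 12.9% higher, and 7 of the 9 had an unadjusted p under 0.05, against 17.2% of all genes. Over all genes, the balance of calls turned without tumour-free replicate 2, from 337 higher and 132 lower to 431 higher and 601 lower. The median difference was 2.00 over the 9 transcripts, all tested, and 0.02 over all genes tested, and all 9 differences were above 0, as were those of 52.1% of all genes.

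**Figure D1:**
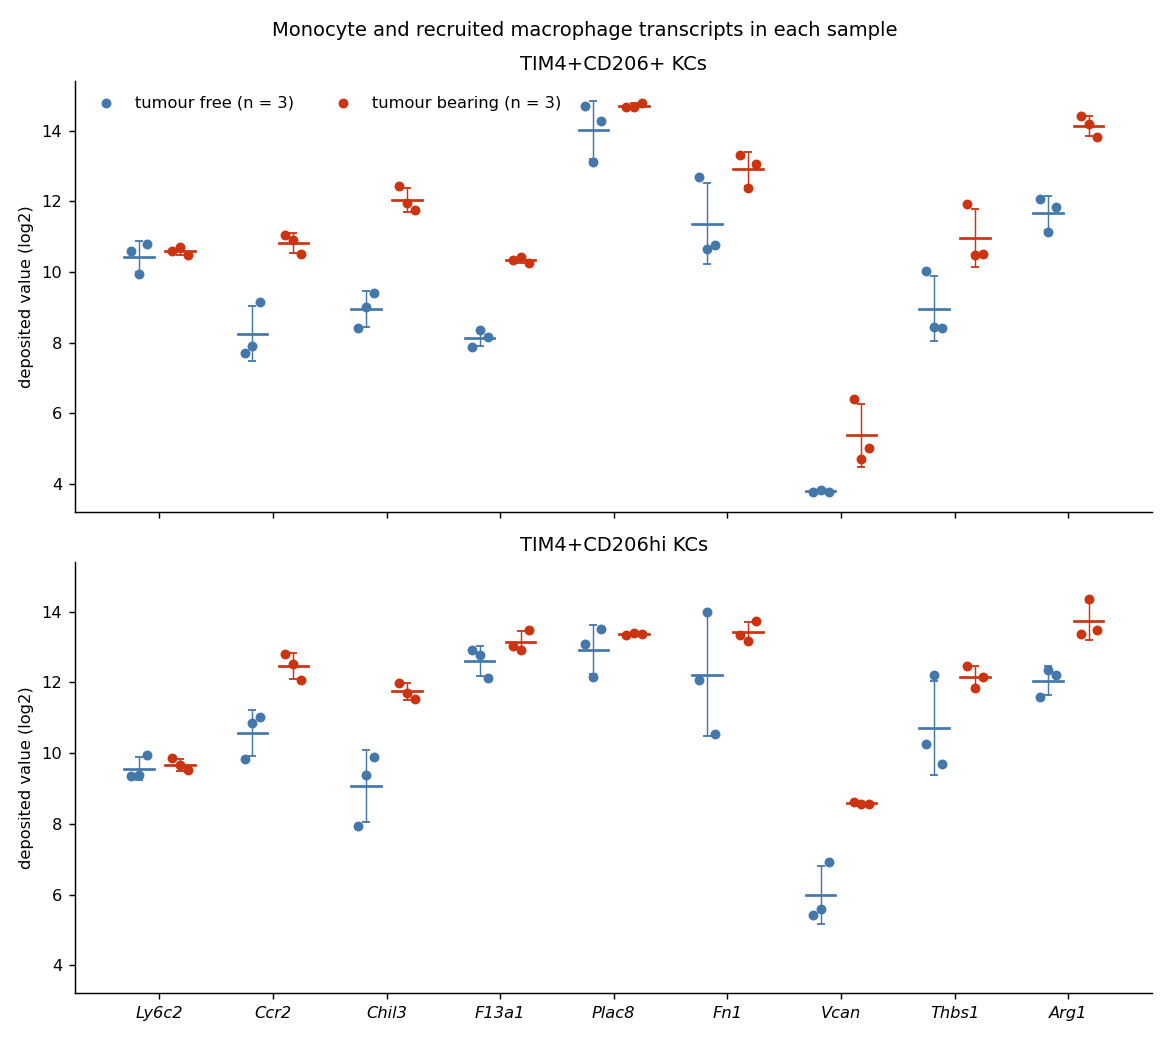
Deposited log2 values of the 9 transcripts in each sample of TIM4+CD206+ KCs (top) and TIM4+CD206hi KCs (bottom). Points are samples, horizontal lines are group means and error bars are SDs, with 3 tumour-free and 3 tumour-bearing samples per subset. The groups lie apart for *Ccr2*, *Chil3*, *Vcan* and *Arg1* in both subsets and for *F13a1* and *Thbs1* in TIM4+CD206+ KCs, while those of *Ly6c2* and *Plac8* overlap in both.

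The surface proteins of the monocyte were not alike. *Ccr2*, the receptor for CCL2, was at 7.72, 7.90 and 9.16 (log2) in the tumour-free samples of TIM4+CD206+ KCs and at 11.06, 10.91 and 10.52 with tumour. Every tumour-bearing sample was above every tumour-free one, and the difference of 2.57 (95% interval 1.71 to 3.43), 5.95-fold on this scale, had an adjusted p of 0.008158. Without tumour-bearing replicate 1, the difference was 2.46 and the adjusted p 0.05002. *Ly6c2* was at 10.60, 9.93 and 10.78 without tumour and at 10.59, 10.71 and 10.49 with tumour. The groups overlapped, and the difference of 0.16 had an interval of −0.39 to 0.70 (adjusted p = 0.8214). Without tumour-free replicate 2, the lowest sample, its sign turned, at −0.10. *Ly6c1* was at 5.25 ± 0.09 without and 5.19 ± 0.28 with tumour (SD, n = 3 each), a difference of −0.06 (adjusted p = 0.9402).

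*Chil3* and *F13a1* are made by classical monocytes, and macrophages of several tissues make them as well. *Chil3* was at 8.41, 9.01 and 9.42 (log2) in tumour-free TIM4+CD206+ KCs and at 12.42, 11.94 and 11.76 with tumour. The gap between the groups, from 9.42 to 11.76, was wider than the spread of either, and the difference of 3.10 (adjusted p = 0.0008686) ranked 42 of 13233 genes by rise. *F13a1*, the catalytic subunit of coagulation factor XIII, was at 7.88, 8.35 and 8.16 without and at 10.33, 10.43 and 10.25 with tumour. Its samples differed by less than 0.5 within each group, against a difference of 2.21 between them (adjusted p = 0.000863, rank 108). Both kept an adjusted p under 0.05 in each of the 6 fits that left out 1 sample.

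*Plac8* encodes a cysteine-rich protein of monocytes, neutrophils and other leukocytes. It was at 14.69, 13.10 and 14.28 (log2) without tumour and at 14.66, 14.66 and 14.78 with tumour. Tumour-free replicate 2 was low, as it was for *Ly6c2*, and the groups overlapped (difference 0.68, SE 0.36, adjusted p = 0.3956). Without that sample the difference was 0.22.

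*Arg1* encodes arginase 1, which splits arginine into ornithine and urea in macrophages that promote repair and in hepatocytes. It was at 12.06, 11.14 and 11.84 (log2) without tumour and at 14.40, 14.18 and 13.83 with tumour. The groups lay apart, and the difference of 2.45 (95% interval 1.86 to 3.05, 5.48-fold on this scale) had an adjusted p of 0.001679. *Fn1* is likewise a gene of hepatocytes as well as macrophages. Of 15 hepatocyte markers, 8 fell, among them albumin (*Alb*, by 2.29), and all 15 had differences below 0 in this comparison (median −1.32), with a summed level, back on the linear scale, of 154000 to 182000 without and 96700 to 125000 with tumour. Most of this sum comes from *Trf*, at 17.04 ± 0.20 (log2) without tumour, which did not pass the test (difference −0.47, adjusted p = 0.2511). The mean of the log2 values over the list was 10.54 to 11.08 per sample without and 9.38 to 9.54 with tumour. The part of hepatocyte RNA in the values of *Arg1* and *Fn1* was not tested.

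The matrix genes varied more between samples. *Fn1*, which encodes fibronectin, was at 12.70, 10.64 and 10.77 (log2) in tumour-free TIM4+CD206+ KCs and at 13.31, 12.38 and 13.05 with tumour. *Thbs1*, thrombospondin 1, was at 10.02, 8.45 and 8.43 without and at 11.92, 10.47 and 10.51 with tumour. In both genes, replicate 1 of each group was the highest, and in *Fn1* tumour-free replicate 1 overlapped the tumour-bearing samples. *Vcan*, the proteoglycan versican, was near the limit for testing without tumour, at 3.78, 3.82 and 3.78, and was at 6.40, 4.70 and 5.03 with tumour. The differences of 1.54 (*Fn1*, adjusted p = 0.1747), 2.00 (*Thbs1*, adjusted p = 0.08276) and 1.58 (*Vcan*, adjusted p = 0.0735) did not pass the threshold. In this table, samples with the same replicate number deviated together, and with the number as a block the adjusted p was 0.004344 for *Fn1*, 4.949e-05 for *Thbs1* and 0.007726 for *Vcan*, so that 7 of the 9 transcripts rose, beside 1026 genes called in all. Leaving out tumour-free replicate 1 likewise brought *Fn1* (2.21, adjusted p = 0.0104) and *Thbs1* (2.53, adjusted p = 0.03648) past the threshold, and leaving out tumour-bearing replicate 1 did so for *Vcan* (1.07, adjusted p = 0.03372).

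In TIM4+CD206hi KCs, 4 of the 9 transcripts rose with tumour and none fell. *Chil3* rose by 2.68 (log2; SE 0.47), *Vcan* by 2.59 (SE 0.40), *Ccr2* by 1.90 (SE 0.35) and *Arg1* by 1.69 (SE 0.32). Of 14561 genes tested, 7.23% changed, 5.21% rising and 2.03% falling. The groups did not overlap in 5 of the 9, all higher with tumour, against 30.7% of all genes in either direction and 15.6% higher, and 5 of the 9 had an unadjusted p under 0.05, against 21.1% of all genes. The median difference of the 9, all tested, was 1.43, against 0.03 over all genes tested. All 9 differences were above 0, against 52.3% of all genes, although that of *Ly6c2* turned to −0.02 after quantile normalization and to −0.05 after each sample was centred on its median. The median centring shifted the differences by −0.16. The calls rested on few samples, since only *Vcan* kept an adjusted p under 0.05 in all 6 fits with 1 sample left out. For *Vcan* too it came close to the threshold, at 0.04946, 0.04992 and 0.04501 without tumour-bearing replicate 1, 2 and 3.

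**Figure D2:**
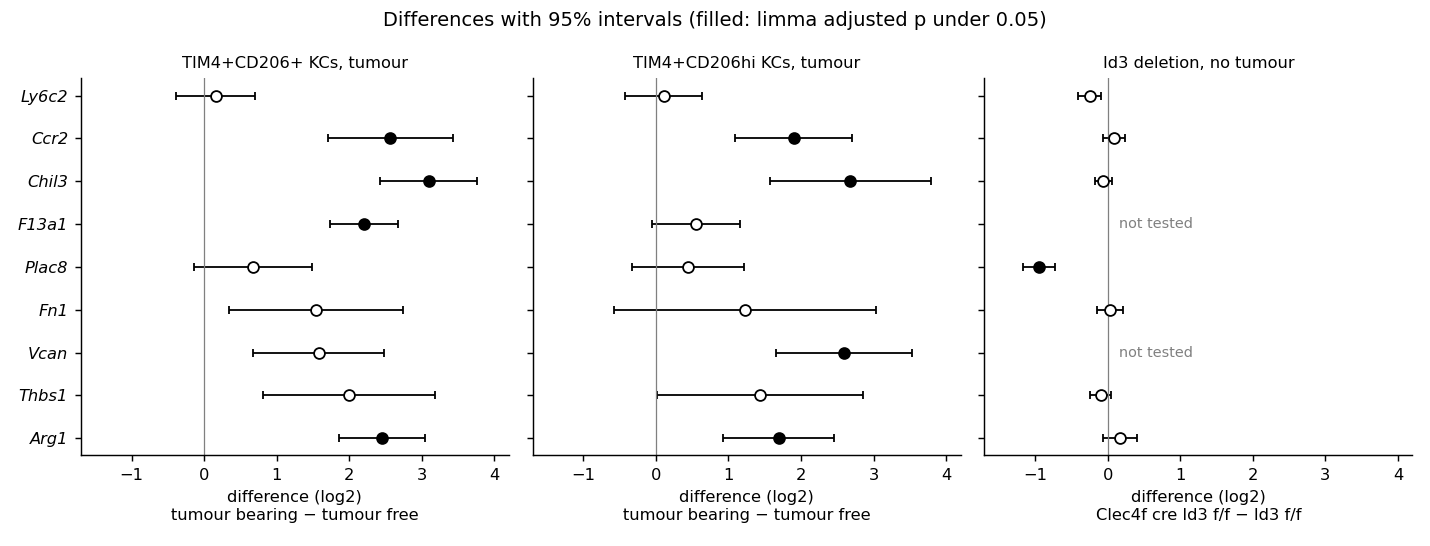
Difference of each transcript between groups (log2, horizontal axis) with its 95% interval, for tumour in TIM4+CD206+ KCs, tumour in TIM4+CD206hi KCs and *Id3* deletion in untreated KCs. Filled circles have a limma adjusted p under 0.05, which *Ccr2*, *Chil3* and *Arg1* have in both tumour comparisons and *Plac8* has in the *Id3* comparison; *Ly6c2* lies at 0.16 and 0.11 in the tumour comparisons, the latter with its sign turned after median centring or quantile normalization.

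*Ccr2* was at 9.83, 10.86 and 11.01 (log2) in tumour-free TIM4+CD206hi KCs and at 12.81, 12.51 and 12.08 with tumour. All tumour-bearing samples were above all tumour-free ones (95% interval of the difference 1.09 to 2.71, 3.73-fold, adjusted p = 0.01823). Without tumour-bearing replicate 1 or 2, the adjusted p was 0.09934 and 0.09723. *Ly6c2* was at 9.36, 9.38 and 9.95 without and at 9.85, 9.65 and 9.52 with tumour. These samples overlapped, and the difference of 0.11 had an interval of −0.42 to 0.64 (adjusted p = 0.7958). The copy *Ly6c1* was at 6.25 ± 0.28 without and 7.72 ± 0.91 with tumour (SD, n = 3 each), with groups that did not overlap and an adjusted p of 0.1102.

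*Chil3* was at 7.93, 9.37 and 9.90 (log2) without tumour and at 11.99, 11.70 and 11.54 with tumour in this subset. Tumour-free replicate 1 was the lowest sample and the groups lay apart (adjusted p = 0.01576). The adjusted p lay between 0.06064 and 0.08485 when any of the tumour-bearing samples was left out. *F13a1* was at 12.92, 12.77 and 12.12 without and at 13.04, 12.92 and 13.49 with tumour. The groups were separated by a gap that vanishes at 2 decimals, and the difference of 0.55 (SE 0.26) had an adjusted p of 0.2802. *Plac8* was at 13.10, 12.16 and 13.52 without and at 13.33, 13.40 and 13.37 with tumour, again with a low tumour-free replicate 2 and overlapping groups (difference 0.44, adjusted p = 0.4634).

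*Vcan* was at 5.43, 5.60 and 6.93 (log2) in tumour-free TIM4+CD206hi KCs and at 8.63, 8.55 and 8.55 with tumour. The tumour-bearing samples were within 0.1 of each other and above all tumour-free ones (95% interval 1.65 to 3.53, 6.02-fold, adjusted p = 0.008513). *Fn1* was at 12.07, 13.99 and 10.54 without and at 13.35, 13.18 and 13.75 with tumour. *Thbs1* was at 10.26, 12.22 and 9.68 without and at 12.47, 11.84 and 12.15 with tumour. Tumour-free replicate 2 stood apart in both, with the highest *Fn1* of the 6 samples. With all samples, the differences were 1.23 (*Fn1*, adjusted p = 0.3927) and 1.43 (*Thbs1*, adjusted p = 0.2345). Without that replicate, they were 2.12 (adjusted p = 0.01521) and 2.18 (adjusted p = 0.002355), and 6 of the 9 transcripts rose, while the genes called in all went from 1053 to 3633.

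The same tumour-free replicate 2 also stood apart in other markers. The summed level of the 7 platelet genes tested in this subset, back on the linear scale, was 9350 in it, 2920 and 2180 in the other tumour-free samples and 3470 to 3710 with tumour. *Pf4*, at 11.63 ± 1.23 (log2) without tumour, was the highest of these genes and weighs most in the sum. The mean of their log2 values was 7.51 in this replicate, 6.69 and 6.35 in the others and 6.81 to 7.31 with tumour. Platelets carry thrombospondin 1 and fibronectin. None of the platelet genes tested, 7 in this subset and 6 in TIM4+CD206+ KCs, changed with tumour. The summed level of 16 classical monocyte genes other than the 9 transcripts was 588000 in this replicate, 289000 and 327000 in the other tumour-free samples and 303000 to 366000 with tumour. Most of this sum comes from *Lyz2*, at 18.20 ± 0.65 (log2) without tumour. The mean of the log2 values over the list was 11.76 in this replicate, 10.91 and 11.23 in the others and 11.79 to 11.84 with tumour. The part of platelet or monocyte RNA in the values of *Fn1* and *Thbs1* was not tested.

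*Arg1* was at 11.58, 12.35 and 12.22 (log2) in tumour-free TIM4+CD206hi KCs and at 13.37, 14.36 and 13.49 with tumour. The groups lay apart (95% interval 0.93 to 2.45, 3.22-fold, adjusted p = 0.02184). The call was lost without tumour-free replicate 1 (adjusted p = 0.0857) and without each of the tumour-bearing samples, in turn (0.05192, 0.0712 and 0.06656). Of the 15 hepatocyte markers, 9 fell and all 15 had differences below 0 (median −1.52), with summed levels of 101000 to 129000 without and 83000 to 99300 with tumour. Here too *Trf* makes up most of the sum, and its difference was −0.13 (adjusted p = 0.7168). The list mean was 10.72 to 11.03 (log2) per sample without and 9.33 to 9.61 with tumour.

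**Figure D3:**
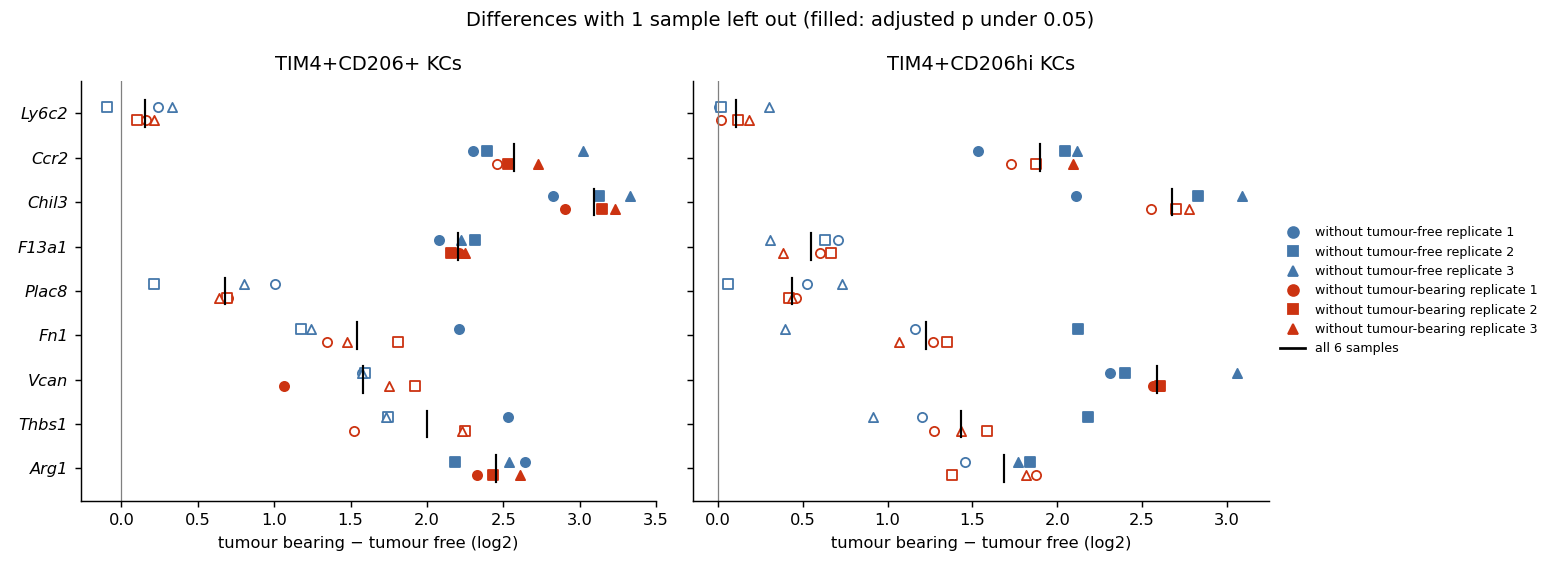
Difference of each transcript with tumour (log2, horizontal axis) in the 2 KC subsets when 1 sample was left out, with a vertical line at the value from all 6 samples. Colour and shape mark the sample left out, and filled symbols have an adjusted p under 0.05, as all 6 do for *Chil3*, *F13a1* and *Arg1* in TIM4+CD206+ KCs and for *Vcan* in TIM4+CD206hi KCs.

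The subsets were normalized separately, and the difference between their responses was not tested. Side by side, *F13a1* rose by 2.21 (log2) in TIM4+CD206+ KCs and had a difference of 0.55 in TIM4+CD206hi KCs. *Vcan* rose by 2.59 in the latter and had a difference of 1.58 in the former. *Ccr2*, *Chil3* and *Arg1* rose in both.

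Other genes of the monocyte and of macrophages in tumours and scars were looked at beside the 9. Of 16 further classical monocyte genes, 5 rose and none fell in TIM4+CD206+ KCs (median difference 0.71), and their summed level was 452000 to 720000 without and 646000 to 773000 with tumour. These were *Gda* (2.77), *S100a6* (2.75), *Ccl9* (2.22), *S100a4* (2.01) and *Clec4e* (1.77). The members of the list with the highest deposited values, the lysozyme gene *Lyz2* (0.34, adjusted p = 0.5307), *Ifitm3* (−0.36, adjusted p = 0.4732) and the endotoxin co-receptor gene *Cd14* (−0.38, adjusted p = 0.2593), did not pass the test. They weigh most in the summed level. The mean of the log2 values over the list was 10.89 to 11.23 per sample without and 11.88 to 12.15 with tumour. In TIM4+CD206hi KCs, 4 of the 16 rose, among them *S100a6* (2.91) and *Gda* (2.19), and *Ifitm3* fell by 0.68 (median of the list 0.23). Of 10 non-classical monocyte genes, *Cx3cr1* and *Pglyrp1* rose in both subsets, the first by 2.43 and 2.07, and the medians were −0.16 and −0.02.

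Of the genes of tumour and scar macrophages, 7 of 15 tested rose in TIM4+CD206+ KCs (median 0.90) and 4 of 16 in TIM4+CD206hi KCs (median 0.74), and none fell. *Spp1*, osteopontin, rose by 3.95 and 3.96 (log2), *Gpnmb* by 3.23 and 3.65, and the lipid receptor gene *Trem2* by 1.74 and 1.63. The elastase gene *Mmp12* rose by 2.85 in TIM4+CD206+ KCs and had a difference of 2.13 in TIM4+CD206hi KCs (adjusted p = 0.08912).

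Genes listed as partners of the 9 proteins were read in the same way, 18 in all. Among the CC chemokines of this list, *Ccl2* rose by 0.90 (log2; adjusted p = 0.0286) and *Ccl12* by 1.33 (adjusted p = 0.02508) in TIM4+CD206+ KCs, with *Ccl7* at 0.95 (adjusted p = 0.09609) and *Ccl8* at 0.42 (adjusted p = 0.6582). None of these 4 passed the test in TIM4+CD206hi KCs, where their differences were 0.32 to 0.82. Around arginase, the arginine transporter gene *Slc7a2* rose by 1.44 in TIM4+CD206hi KCs (adjusted p = 0.01878) and had a difference of 0.94 in TIM4+CD206+ KCs (adjusted p = 0.08026). *Ass1*, which rebuilds arginine and is also a hepatocyte gene, fell by 1.49 in TIM4+CD206hi KCs (adjusted p = 0.00599). Receptors for fibronectin, versican and thrombospondin (*Itga5*, *Itgb1*, *Itga4*, *Itgav*, *Cd44*, *Tlr2*, *Cd36* and *Cd47*) did not pass the test in either subset, with differences between −0.78 and 0.70. The remaining 4, *Arg2*, *Nos2*, *Odc1* and *Tgm2*, a transglutaminase like factor XIII, lay between −1.12 and 0.77 and did not pass the test. Of the 18, 2 rose in TIM4+CD206+ KCs, while 1 rose and 1 fell in TIM4+CD206hi KCs.

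Markers of other cells moved with the tumour in the same samples. All 11 tested genes of tumour epithelium rose in both subsets, with medians of 3.85 and 4.83 (log2) and summed levels that went from 1960 to 3850 up to 43300 to 50300 in TIM4+CD206+ KCs, and from 2140 to 2920 up to 58000 to 61900 in TIM4+CD206hi KCs. Of the neutrophil genes, 5 of 14 tested rose in TIM4+CD206+ KCs and 5 of 13 in TIM4+CD206hi KCs, *S100a8* and *S100a9* among them in both, and summed levels were 12400 to 22200 against 39700 to 43100 and 8460 to 15400 against 22000 to 33500. *Ly6g*, the antigen used to gate neutrophils out, rose by 1.73 in TIM4+CD206hi KCs, from 3.96 ± 0.63, near the limit for testing, to 5.70 ± 0.23. In TIM4+CD206+ KCs, the difference of *Ly6g* was 1.06 and did not pass the test (adjusted p = 0.1678). No marker of these lists was at 0 in the tumour tables. Among 15 KC genes, *Timd4*, *Adgre1* and *Csf1r* fell in TIM4+CD206+ KCs, by 0.75, 0.93 and 0.94, and none passed the test in TIM4+CD206hi KCs. The sum over the KC genes was 1890000 to 2430000 without and 1330000 to 1430000 with tumour in TIM4+CD206+ KCs, and 1130000 to 1520000 without and 982000 to 1130000 with tumour in TIM4+CD206hi KCs. The part of other cells in the rise of the 9 transcripts was not tested.

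Of the dendritic cell genes, 1 of 10 rose in each subset, the integrin gene *Itgax* (1.10 and 1.60). Of the B cell genes, *Cd79a* and *Cd79b* fell in both subsets, with differences of −1.18 and −0.91 in the main subset and −1.08 and −0.99 in the minor one. None of 11 T and NK cell genes tested passed the threshold in either subset, with medians of −0.58 and −0.62. None of 10 stellate cell and fibroblast genes and none of 11 endothelial genes tested did so in TIM4+CD206+ KCs, while *Dcn* and *Lrat* (of 12) and *Clec4g*, *Oit3* and *Tek* (of 11) fell in TIM4+CD206hi KCs. Summed endothelial levels in TIM4+CD206hi KCs were 175000 to 280000 without and 110000 to 137000 with tumour.

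**Figure D4:**
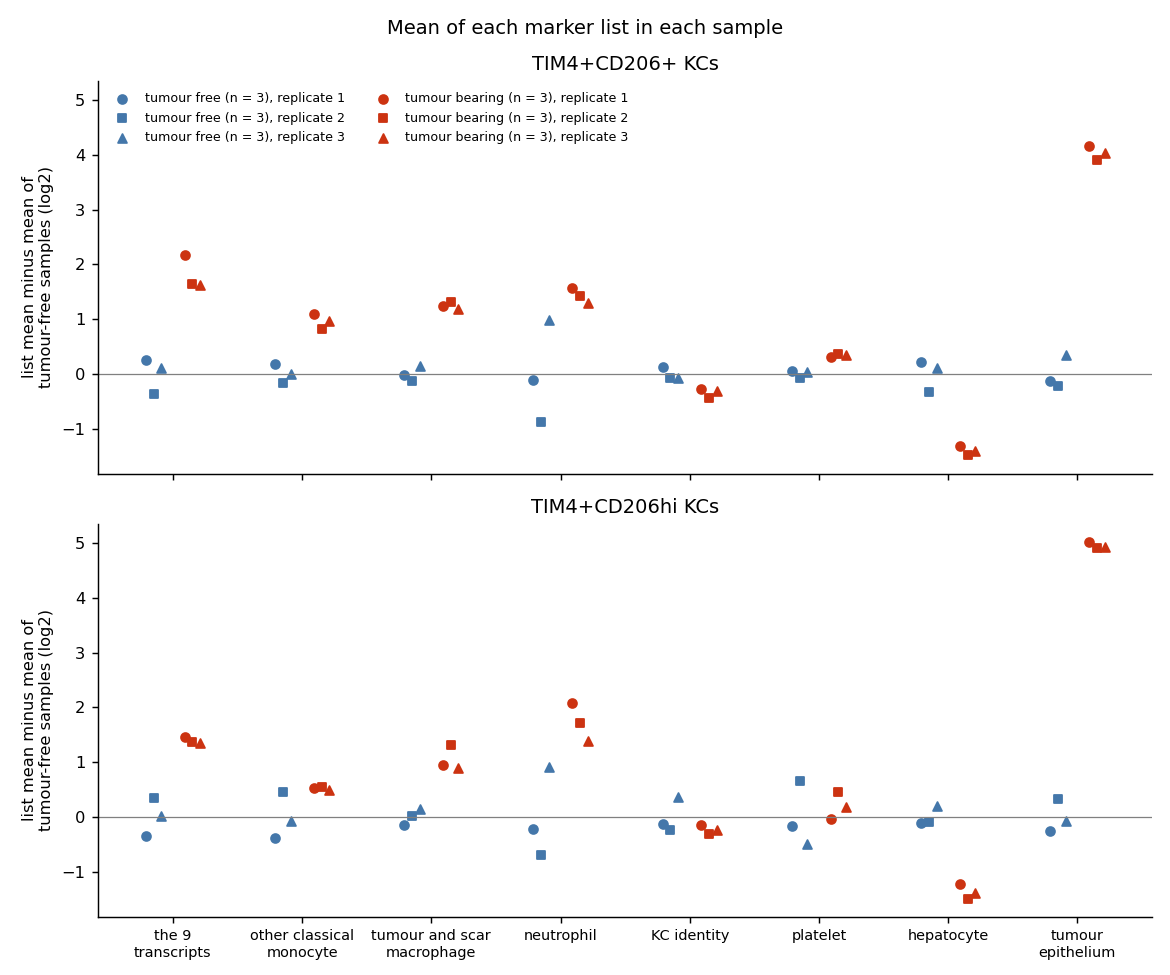
Mean of the tested genes of each marker list in each sample (log2), relative to the mean of the tumour-free samples of the same subset (vertical axis). Each symbol is a sample, with circles, squares and triangles for replicates 1, 2 and 3. The 9 transcripts, other classical monocyte genes, and tumour and scar macrophage genes lie higher in the tumour-bearing samples, as do neutrophil and tumour epithelium genes, and hepatocyte genes lie lower.

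The 9 transcripts did not vary together within groups. Across the 12 tumour-experiment samples, after the mean of each group was subtracted, Pearson's r was 0.91 between *Fn1* and *Thbs1*, 0.86 between *Ccr2* and *Chil3* and 0.76 between *Ly6c2* and *Plac8*, but −0.69 between *Ly6c2* and *F13a1* and −0.36 between *Ccr2* and *F13a1*. With the mean of the neutrophil list, r was 0.91 for *Ly6c2*, 0.66 for *Ccr2* and −0.62 for *F13a1*. With the platelet list it was 0.76 for *Fn1* and 0.64 for *Thbs1*, and with the T and NK cell list 0.96 for *Plac8*. Other lists gave r of similar size. It was 0.85 for *Ly6c2* with hepatocyte genes, 0.75 for *Ccr2* with tumour epithelium and −0.74 for *F13a1* with KC genes. For *Plac8* it was 0.83 with stellate, 0.81 with endothelial and 0.78 with hepatocyte genes. With the other classical monocyte genes, it was 0.70 for *Fn1* and 0.79 for *Thbs1*. These values describe 12 samples that share 2 normalizations, and no test was made.

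The genes most like each transcript were found among 13110 genes by Pearson's r over the same 12 samples, after the mean of each table was subtracted, so that the difference with tumour contributes to r. *Ccr2* was most like the neutrophil gene *Retnlg* (0.982), *S100a11* and *Tarm1*, *Chil3* most like *S100a11* (0.979), *AA467197* and *Mir147*, and *Arg1* most like *Cd63* (0.977), *S100a11* and *Ccl9*. *S100a11* is thus shared by these 3. *F13a1* was most like *Top1* (0.944), *Zfp397* and *Bdp1*, *Vcan* most like *Ugt2b34* (0.977), *Rhpn2* and *Mall*, *Thbs1* most like *Itgam* (0.958), *Galnt9* and *Erbb2*, and *Fn1* most like *Padi4* (0.948), *Rasip1* and *Erbb2*. *Plac8* was most like *Gapdh* (0.968), *Rps10* and *Ldha*, and *Ly6c2* most like *Slc35c2* (0.951), *1600014C10Rik* and *Fgr*.

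In untreated KCs, 1 of the 9 transcripts changed with *Id3* deletion. *Plac8* fell by 0.95 (log2; SE 0.10), to 0.517 of its level on this scale, and ranked 38 among 12833 genes by fall. Of these genes, 6.44% changed, 3.37% falling and 3.08% rising. Of the 7 transcripts tested, 2 had an unadjusted p under 0.05, against 23.6% of all genes, and 3 differences were above 0, against 50.4% of all genes. *Id3* itself was at 12.58, 12.46 and 12.82 in control KCs, against 9.83 and 9.82 after deletion, so that it fell by 2.80 (adjusted p = 1.405e-06).

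**Figure D5:**
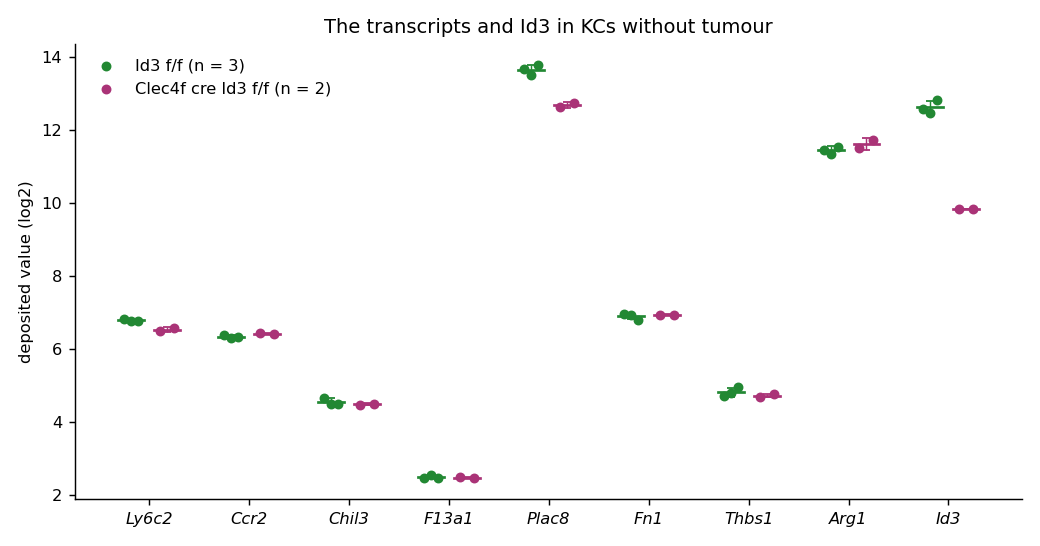
Deposited log2 values of 8 of the transcripts and of *Id3* in untreated KCs of 3 control and 2 Id3-deleted samples. Points are samples, lines are means and error bars are SDs. *Plac8* and *Id3* are lower in the 2 Id3-deleted samples, and *Vcan*, at 0 in every sample, is not drawn.

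*Plac8* was at 13.66, 13.50 and 13.78 (log2) in the control samples and at 12.63 and 12.75 in the Id3-deleted samples. The genotypes lay apart by more than the spread within either (95% interval −1.17 to −0.73, adjusted p = 0.001505). Without replicate 1 of the Id3-deleted KCs, the difference was −0.89 and the adjusted p 0.08162. Sex-linked genes also separated the genotypes. *Xist* was at 6.36 in control and at 9.80 in Id3-deleted KCs, and *Ddx3y* was at 9.44 and 7.0. Sex and genotype therefore cannot be told apart in this comparison, the only one in which these genes were read.

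The *Plac8* promoter was read because E-proteins, which ID3 holds off, bind E-boxes (CANNTG). RefSeq, on GRCm38.p6, gives *Plac8* 2 start sites, and the 250 bases before each are shown on the minus strand, as transcribed, with E-boxes and the core of the motif of PU.1 (GAGGAA or its reverse complement), a factor of all macrophages, in capitals.
Plac8, outer start, chr5:100572206-100572455: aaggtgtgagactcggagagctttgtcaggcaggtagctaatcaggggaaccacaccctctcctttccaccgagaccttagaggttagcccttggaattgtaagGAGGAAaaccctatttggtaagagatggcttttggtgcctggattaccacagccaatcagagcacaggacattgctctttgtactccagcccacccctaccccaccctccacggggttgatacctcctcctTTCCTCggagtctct
Plac8, inner start, chr5:100563097-100563346: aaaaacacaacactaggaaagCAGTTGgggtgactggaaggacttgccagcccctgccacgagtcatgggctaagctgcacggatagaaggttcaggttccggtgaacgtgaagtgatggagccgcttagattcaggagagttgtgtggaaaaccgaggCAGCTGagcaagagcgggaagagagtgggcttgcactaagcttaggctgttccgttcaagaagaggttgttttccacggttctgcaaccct

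The window of the outer start held 2 PU.1 cores and no E-box, and that of the inner start 2 E-boxes and no PU.1 core. On either strand, 66.2% of all 32851 promoter windows of this length held an E-box and 23.3% a PU.1 core, and the motifs do not overlap in these windows. Among the other transcripts, *Ly6c2*, *Ccr2*, *F13a1* and *Vcan* had an E-box in every window given for them and *Chil3* had neither motif. These are matches of letters only.

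No other transcript passed the test in the *Id3* comparison. *Ly6c2* was at 6.81, 6.76 and 6.76 (log2) in control KCs and at 6.48 and 6.57 in Id3-deleted KCs. The genotypes did not overlap, but the difference of −0.25 had an adjusted p of 0.07046, which was 0.04192 without replicate 3 of the control KCs and 0.04958 with median centring. *Arg1* was at 11.45, 11.33 and 11.54 against 11.49 and 11.73, which overlapped (difference 0.17, adjusted p = 0.384). *Ccr2* was between 6.29 and 6.38 against 6.40 and 6.43, which do not overlap, with a difference of 0.09 (adjusted p = 0.4748). Of the 7 tested, 1 was higher in every Id3-deleted sample and 2 were lower, against 20.2% and 21.7% of all genes tested, 41.9% in all.

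*Chil3*, at 4.47 to 4.66 (log2) over the 5 samples, *Fn1*, at 6.80 to 6.96, and *Thbs1*, at 4.69 to 4.94, had overlapping genotypes and differences of −0.06, 0.03 and −0.10. The difference of *Fn1* turned to −0.01 without replicate 3 of the control KCs. *F13a1*, at 2.46 to 2.54, was below the limit for testing, and *Vcan* was listed at 0 in all 5 samples. The median difference of the 7 transcripts tested was −0.06, against 0.00 over all genes tested.

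The same lists were read in the *Id3* comparison. Of 16 other classical monocyte genes, *Ms4a4c*, *Ifitm3* and *Ifitm6* fell, by 0.86, 0.75 and 0.52 (log2), and none rose. Of 13 tumour and scar macrophage genes tested, 6 fell, *Mmp12* by 1.74, *Trem2* by 0.94 and *Il1b* by 0.64 among them, and none rose. Of the non-classical monocyte genes, *Nr4a1*, *Cd300e* and *Itgal* rose, by 0.81, 0.61 and 0.43. The CCR2 ligand genes *Ccl2* and *Ccl7* fell by 1.15 and 0.65, the second arginase gene *Arg2* fell by 0.57, and the integrin gene *Itgb1* rose by 0.41. Of 10 neutrophil genes tested, *Mmp9* fell by 0.49, with summed levels of 2120 to 2290 in control and 1710 to 1950 in Id3-deleted KCs and *Ly6g* at 0 in all 5 samples. The KC genes divided, 4 rising and 4 falling, with *Clec4f* falling by 1.52. Only the Id3-deleted samples carry the Cre driven by *Clec4f*. The Cre and the loss of *Id3* therefore cannot be told apart for any gene of this comparison, *Clec4f* included.

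Of the remaining lists in this comparison, the platelet genes had 1 of 8 tested that fell, *Pf4*, by 0.73. Of 15 hepatocyte genes, *Tat* rose by 0.77, and of 11 endothelial genes *Pecam1* rose by 0.58 and *Clec4g* fell by 0.80. No dendritic, stellate, B, T and NK cell or tumour epithelium gene passed the threshold, and of the last *Gkn1* and *Cldn4* were at 0 in every sample.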

How the data were processed

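Libraries were made by the authors with SMART-Seq v4 amplification, which keeps no strand and no molecular identifiers, and sequenced as paired reads of 100 bases. The submitters' processing notes name STAR 2.7.10a, HTSeq, DESeq2 and mm10, which is GRCm38. The deposited values are named as counts or TPM, but behave as log2 values of a regularized log, made by the authors per table. Which transformation they used is not given in the sources used here, and no count test was run on values of this kind. Depth is known only through the sums of these values on the linear scale.

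The 9 transcripts and the marker lists were chosen with earlier results of these data known. Groups follow the labels. Genes were tested with limma 3.58.1 in R 4.3.3 (mean-variance trend, no block, Benjamini-Hochberg adjustment), after tests on simulated data. Linear values are 2 to the power of the log2 values, and folds are 2 to the power of a difference. After group means were removed, same-numbered samples correlated in TIM4+CD206+ KCs (r of 0.35, 0.564 and 0.149), so blocked values stand beside results there where they change the call. They did not in TIM4+CD206hi KCs (−0.048, −0.132 and −0.051) or the *Id3* table (−0.073 and −0.10). Alternatives were no filter, a mean of 50 counts, the block, each sample left out, no trend, quantile normalization, median centring and, for levels without a test, group means on the linear scale. Named genes were the 9, their copies, *Id3*, all genes listed as partners of their products and the 3 genes most like each transcript. From each other list they were those called, with the largest change or the highest mean. The sex-linked genes *Xist* and *Ddx3y* were added after their values were seen. *Itga4*, *Ccl8*, *Nos2* and *Ass1* stand in more than 1 list. Sequences came from GENCODE M21 and RefSeq (GRCm38.p6), with promoter windows for 6 of the 9. Python 3.11.15, pandas 2.3.3, Biopython 1.88 and matplotlib 3.10.9 were used.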

Additional observations from a re-analysis of the deposited data

How the results depend on the processing

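With the replicate number as a block, genes called went from 469 to 1026 in TIM4+CD206+ KCs and the transcripts called from 4 to 7. Same-numbered samples did not correlate elsewhere, and the labels do not say whether the numbers pair samples. In TIM4+CD206hi KCs the block gave 909 genes and the same count of 4. In the *Id3* comparison it gave 2089 genes (against 827) and 2 transcripts, *Ly6c2* (−0.26, adjusted p = 0.02563) being added and *Fn1* turning to −0.0112. The stricter filter gave 600 genes in TIM4+CD206hi KCs (against 1053), and no filter 510 in the *Id3* comparison, with fewer and more genes tested. Median centring gave 2 transcripts there, and 328 higher and 550 lower calls against 395 and 432. Quantile normalization gave 664 higher and 518 lower calls against 758 and 295 in TIM4+CD206hi KCs, where *Ly6c2* turned to −0.0176, and to −0.0514 with median centring. The cause was not tested.

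With 1 sample left out, genes called ranged from 231 to 1032 in TIM4+CD206+ KCs (1032 without tumour-free replicate 2), from 444 to 3633 in TIM4+CD206hi KCs (3633 without tumour-free replicate 2) and from 17 to 1850 in the *Id3* comparison (1850 without *Id3 f/f* replicate 3, 17 and 19 without a *Clec4f cre Id3 f/f* replicate, which leaves 1 sample assumed to vary like the others). Transcripts called ranged from 4 to 6, from 1 to 6 and from 0 to 2. The difference of *Ly6c2* in TIM4+CD206+ KCs ranged from −0.095 (without tumour-free replicate 2) to 0.328, and that of *Fn1* in the *Id3* comparison from −0.0112 (without *Id3 f/f* replicate 3) to 0.0681. Under the other alternatives, 139 differences of single transcripts kept their direction and side of the threshold, 5 gained a call and 3 turned. With group means taken on the linear scale, all 26 differences that could be computed kept their sign and moved by less than the spread within groups.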
